A study of Rattus norvegicus with 23 samples.

Results

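Control aggregates of embryonic rat brain cells were compared between 6 hours (T6) and 0 hours (T0), using 3 T6 and 3 T0 control libraries, 6 of the 23 libraries of the series, chosen by the time and treatment in their titles. The cultures are spheres that dissociated brain cells form when kept in constant motion. All came from Sprague Dawley rats at embryonic day 15 and were cultured for 14 days, with fresh medium every 3 days. Control samples of the series received phosphate-buffered saline (PBS), the vehicle of the 120 ng/ml sepiapterin given to the treated aggregates. The sources used here do not give whether the T0 controls also received PBS or whether the medium was renewed at the start. The series asks whether sepiapterin, a precursor of the enzyme cofactor tetrahydrobiopterin, changes gene expression in such tissue. The comparison described here holds no sepiapterin and shows how far control libraries at 6 hours differed from those at 0 hours. The labels name no separate culture for each replicate. The p-values then reflect just the spread within groups of the 21 libraries fitted together, which may be technical. The library batch of T0 is not stated, while T6 is in the first batch, so time and library preparation cannot be told apart.

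Genes are identified in the files by Ensembl identifier alone. Fos (ENSRNOG00000008015), Egr1 (ENSRNOG00000019422) and Hmox1 (ENSRNOG00000014117) have a name here because the comparison was defined with these 3 pairs of identifier and symbol. The other genes could not be tied to a symbol, so neither pathways nor the markers of neurons, glia or other cells could be examined, and the labelled tissue was not checked against its markers.

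Fos and Egr1 are immediate-early genes. Their transcription starts within minutes of a stimulus such as a growth factor, serum or neuronal firing, without new protein synthesis. The messenger RNAs of both are short-lived. FOS pairs with JUN proteins to form the AP-1 transcription factor, and EGR1 is a zinc finger transcription factor. Hmox1 encodes heme oxygenase 1, the inducible enzyme that breaks heme down to biliverdin, carbon monoxide and iron. It is a classical marker of oxidative, heme and metal stress, under the control of the activator NRF2 and the repressor BACH1.

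The CArG box, the element bound by serum response factor, is the textbook route by which growth signals reach Egr1. Of the 3 named genes, 1 matched the RefSeq promoter table of build GRCr8 by symbol. The 250 bases upstream of its annotated start site, at chr18:26736828-26737077 on the plus strand, are shown because they hold these elements, which are in capitals.

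Egr1: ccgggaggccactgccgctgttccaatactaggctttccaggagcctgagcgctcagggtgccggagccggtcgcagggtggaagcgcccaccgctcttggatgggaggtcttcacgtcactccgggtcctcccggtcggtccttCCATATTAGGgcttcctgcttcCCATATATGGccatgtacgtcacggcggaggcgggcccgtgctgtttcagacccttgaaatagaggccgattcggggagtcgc

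The window held 2 CArG boxes, CCATATTAGG with its first base at -105 and CCATATATGG with its first base at -83 relative to the start site. A search of the same 250 bases before each of 33469 RefSeq starts found at least 1 CArG box in 1.5% and at least 2 in 0.0209%. The half-site TGACG of the cAMP response element, searched on both strands, occurred 2 times in the Egr1 window. At least 1 was held by 18.2% of windows and at least 2 by 3.98%. These are matches of letters, not measured binding.

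Egr1 and Fos were lower at T6 than at T0, and Hmox1 was higher. Levels are CPM, the reads of a gene per 1e+06 reads in genes, scaled between libraries by the trimmed mean of M-values (TMM). Over the whole table, 3035 of 14035 genes tested (21.6%) had a Benjamini-Hochberg adjusted p under 0.05 in edgeR's quasi-likelihood test and are termed called. Called rises made up 10.9% and called falls 10.7% of the genes tested. The libraries of the groups did not overlap for 35.9% of all genes tested, with all T6 libraries higher for 18.3% and all lower for 17.6%. In bulk RNA, fewer cells of a type and less RNA per cell cannot be told apart.

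Egr1 stood at 32.2, 38.2 and 33.4 CPM in T0 replicates 1, 2 and 3, and at 10.5, 11.9 and 9.48 CPM in T6 replicates 1, 2 and 3. Every T0 library was well above every T6 library, and the replicates of each group lay close together. The means were 34.6 ± 3.19 CPM at T0 and 10.6 ± 1.22 CPM at T6 (SD, n = 3 each). The log2 fold change was -1.70 ± 0.10 (SE), a 3.24-fold fall with a 95% interval of 2.84 to 3.69, and edgeR's adjusted p was 4.6e-11. Between 208 and 779 reads per library lay behind these values.

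Fos stood at 10.1, 18.4 and 16.0 CPM in T0 replicates 1, 2 and 3, and at 4.37, 4.81 and 3.65 CPM in T6 replicates 1, 2 and 3. The groups did not overlap, but T0 replicate 1 was lower than the other T0 libraries and the T0 spread was wide. The means were 14.8 ± 4.28 CPM at T0 and 4.28 ± 0.59 CPM at T6 (SD, n = 3 each). Fos fell 3.43-fold, with a 95% interval of 2.68 to 4.4. The log2 fold change was -1.78 ± 0.18 (SE), with 9.8e-07 as edgeR's adjusted p. Without T0 replicate 1 the fall was 3.96-fold (adjusted p 4.6e-11 in edgeR).

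Hmox1 stood at 11.1, 9.28 and 8.65 CPM in T0 replicates 1, 2 and 3, and at 59.0, 62.3 and 54.0 CPM in T6 replicates 1, 2 and 3. The lowest T6 library lay far above the highest T0 library. The means were 9.67 ± 1.27 CPM at T0 and 58.4 ± 4.18 CPM at T6 (SD, n = 3 each). Hmox1 rose 6.04-fold, with a 95% interval of 4.71 to 7.74. The log2 fold change was 2.59 ± 0.18 (SE), with 1.9e-07 as edgeR's adjusted p. Among called genes whose mean log2 CPM was at least 1, Hmox1 had rank 2 of the rises by fold, and Fos and Egr1 had ranks 1 and 2 of the falls.

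**Figure D1:**
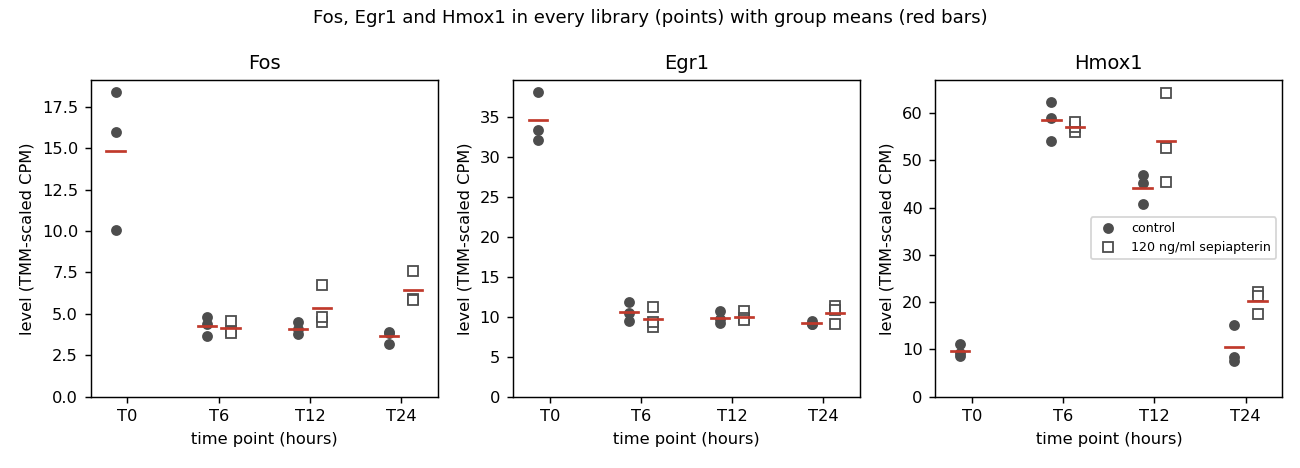
Level in TMM-scaled CPM (vertical axes, linear from 0) of Fos, Egr1 and Hmox1 in each library at T0, T6, T12 and T24, with filled circles for controls, open squares for 120 ng/ml sepiapterin and red bars for group means. Fos and Egr1 sit high at T0 alone, at means of 14.8 and 34.6 CPM, while Hmox1 is at 9.67 CPM at T0 and 58.4 CPM in T6 controls.

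The later control groups and the sepiapterin groups share no library with the 6 compared and are given as levels, without a test against T0. Egr1 averaged 9.89 ± 0.82 CPM in T12 controls and 9.24 ± 0.21 CPM in T24 controls (SD, n = 3 each), near its T6 level. In sepiapterin aggregates Egr1 averaged 9.78 ± 1.32 CPM at T6, 10.1 ± 0.56 CPM at T12 and 10.5 ± 1.20 CPM at T24. Every Egr1 group after T0 thus had its mean below the lowest T0 library.

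Fos averaged 4.11 ± 0.37 CPM in T12 controls and 3.64 ± 0.40 CPM in T24 controls. In sepiapterin aggregates it averaged 4.13 ± 0.39 CPM at T6, 5.35 ± 1.20 CPM at T12 and 6.42 ± 1.01 CPM at T24 (SD, n = 3 each). All Fos libraries after T0, in controls and with sepiapterin, were below the lowest T0 library, and the highest of them stood at 7.59 CPM.

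Hmox1 averaged 57.1 ± 1.08 CPM with sepiapterin at T6, inside the range of the T6 controls. In controls it averaged 44.2 ± 3.17 CPM at T12 and 10.4 ± 4.17 CPM at T24, and with sepiapterin 54.0 ± 9.53 CPM at T12 and 20.3 ± 2.51 CPM at T24 (SD, n = 3 each). Hmox1 was thus nearer to its T0 than to its T6 level in T24 controls, whose range of 7.63 to 15.2 CPM spans the T0 range. By label T24 was prepared in the second library batch, so its levels cannot be told apart from batch. Samples 10 and 11 of T12 have a pair of libraries each, whose titles and file headers disagree. All 5 T12 control libraries had Hmox1 between 40.7 and 46.9 CPM, Egr1 between 9.19 and 10.8 CPM and Fos between 3.78 and 4.50 CPM.

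The 4 other genes described are known by identifier only. They had the largest rises and falls besides Hmox1, Fos and Egr1 among called genes whose mean log2 CPM was at least 1 and whose groups did not overlap. ENSRNOG00000014948 stood at 0.23, 0.15 and 0.22 CPM in T0 replicates 1, 2 and 3 and at 4.76, 4.03 and 3.83 CPM in T6 replicates 1, 2 and 3. It was near the detection limit at T0 and clearly read in all T6 libraries. Its fitted rise was 20.4-fold (log2 fold change 4.35 ± 0.35 SE, edgeR adjusted p 8.3e-09), with rank 1 of all called rises. The T0 level rests on 13 reads in all, against 301 at T6, and the ratio of these sums scaled by depth is 21 with a 95% exact counting interval of 12.1 to 39.8. It averaged 3.16 ± 0.17 CPM with sepiapterin at T6, and in later controls 4.92 ± 0.59 CPM at T12 and 1.27 ± 0.89 CPM at T24 (SD, n = 3 each).

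ENSRNOG00000003537 stood at 2.80, 1.13 and 1.25 CPM in T0 replicates 1, 2 and 3 and at 5.29, 6.18 and 5.15 CPM in T6 replicates 1, 2 and 3. By selection the groups did not overlap, and T0 replicate 1 was the T0 library nearest to T6. It rose 3.19-fold (log2 fold change 1.68 ± 0.25 SE, edgeR adjusted p 8.9e-05). Without T0 replicate 1 the rise was 4.68-fold (adjusted p 4.8e-07 in edgeR). Its mean was 4.63 ± 0.24 CPM with sepiapterin at T6, 10.9 ± 1.49 CPM in T12 controls and 5.58 ± 0.92 CPM in T24 controls (SD, n = 3 each).

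ENSRNOG00000015382 stood at 12.8, 11.1 and 10.5 CPM in T0 replicates 1, 2 and 3 and at 4.15, 3.81 and 3.74 CPM in T6 replicates 1, 2 and 3. It fell 2.94-fold with tight groups (log2 fold change -1.56 ± 0.11 SE, edgeR adjusted p 6.2e-10). ENSRNOG00000007607 stood at 10.2, 14.8 and 16.0 CPM in T0 replicates 1, 2 and 3 and at 6.09, 6.51 and 5.43 CPM in T6 replicates 1, 2 and 3. It fell 2.27-fold (log2 fold change -1.18 ± 0.13 SE, edgeR adjusted p 1.1e-06), and T0 replicate 1 was again nearest to T6. With sepiapterin at T6 the means were 4.39 ± 0.24 CPM for ENSRNOG00000015382 and 6.56 ± 0.39 CPM for ENSRNOG00000007607. In T24 controls they were 5.59 ± 0.44 CPM for ENSRNOG00000015382 and 5.37 ± 0.39 CPM for ENSRNOG00000007607 (SD, n = 3 each), both below all of the T0 libraries. With sepiapterin at T24 they were 6.62 ± 0.12 CPM for ENSRNOG00000015382 and 9.42 ± 1.17 CPM for ENSRNOG00000007607. The highest of these ENSRNOG00000007607 libraries, at 10.22 CPM, lay just above T0 replicate 1 at 10.19 CPM.

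**Figure D2:**
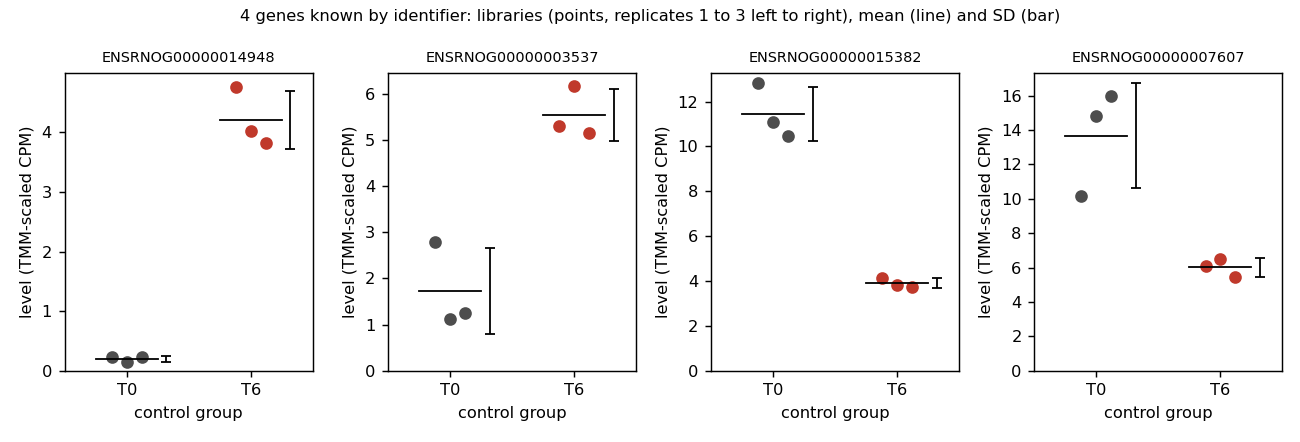
Level in TMM-scaled CPM (vertical axes, linear from 0) of the 4 genes known by identifier, with a point for each control library at T0 (grey) and T6 (red), a line at the mean and a bar for the SD. The 4 genes were chosen from those whose groups did not overlap. T0 replicate 1, the leftmost point, is nearest to T6 for ENSRNOG00000003537 and ENSRNOG00000007607.

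Each of these 7 genes kept its direction and an adjusted p under 0.05 in all 16 alternatives run. The genes were chosen from these same data, so the alternatives are not independent checks. Across them the log2 fold change ranged from -1.79 to -1.63 for Egr1, -1.99 to -1.61 for Fos and 2.51 to 2.72 for Hmox1, and the highest adjusted p-values were 0.00023, 0.0063 and 1.4e-05. It ranged from 4.19 to 4.46 for ENSRNOG00000014948 and from 1.45 to 2.23 for ENSRNOG00000003537, with adjusted p up to 0.00019 and 0.013. For ENSRNOG00000015382 and ENSRNOG00000007607 it ranged from -1.62 to -1.46 and from -1.35 to -1.05, with adjusted p up to 0.00048 and 0.0069.

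Changes of the size seen in the described genes were rare. Those genes were chosen by fold or with earlier results known, so this was partly fixed beforehand. Of the 3035 called genes, 1532 were higher and 1503 lower at T6, and their median absolute log2 fold change was 0.27, against 0.13 over all genes tested. The median log2 fold change was 0.28 among the called rises, -0.25 among the called falls and -0.01 over all genes. A change of 1.5-fold or more was reached by 265 called genes and of 2-fold or more by 74, which is 0.527% of the genes tested. Rises reached further than falls, to 20.4-fold against 4.95-fold, and 10 rises and 6 falls were 3-fold or more.

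The 2-fold changes lay mostly among weakly expressed genes, whereas small changes were called mostly among abundant ones. In the lowest quartile of mean level, from 0.216 to 6.38 CPM, 283 of 3509 genes (8.06%) were called, with 34 rises and 29 falls of 2-fold or more. In the highest quartile, above 72.9 CPM, 1015 of 3509 genes (28.9%) were called, and 1 rise and 0 falls were 2-fold or more. Precision differed alongside, with a median SE of the log2 fold change of 0.241 in the lowest and 0.052 in the highest quartile. The balance of directions differed too, with 455 rises and 307 falls in the second quartile, and 410 rises and 605 falls in the highest. Of the 74 genes changed 2-fold or more, 70 had groups that did not overlap. The same held for 2855 of the 3035 called genes and for 35.9% of all genes tested.

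**Figure D3:**
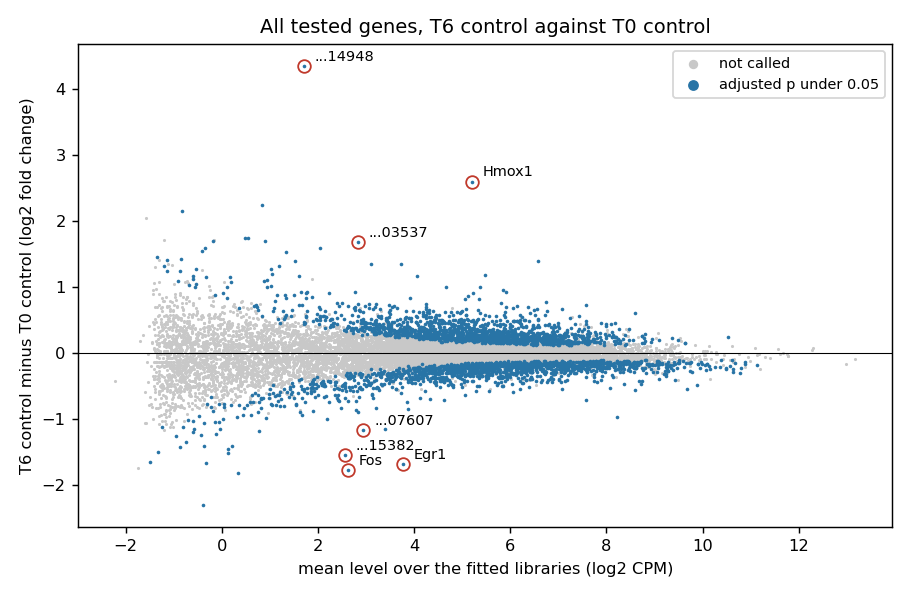
Log2 fold change of T6 over T0 controls (vertical axis) against mean log2 CPM over the fitted libraries (horizontal axis) for the 14035 genes tested, with called genes in blue and the 7 described genes circled (identifiers shortened to their last 5 digits). Called genes form bands close to 0 at high levels, and ENSRNOG00000014948 and Hmox1 stand far above them.

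T0 replicate 1 stood apart from its group. Its root mean square distance to T0 replicates 2 and 3, over log2 CPM of all tested genes, was 0.364 and 0.393, as large as its distances of 0.360 to 0.372 to the T6 controls. T0 replicates 2 and 3 were 0.253 apart, T6 controls 0.220 to 0.242, and T0 replicates 2 and 3 lay 0.324 to 0.346 from T6. Of 11997 genes whose mean log2 CPM was at least 1, 517 (4.31%) differed 1.5-fold or more between T0 replicate 1 and the mean of the other T0 libraries, 343 of them higher in it. The same count was 78 and 168 for T0 replicates 2 and 3, each against a mean that includes T0 replicate 1. It was 13 to 34 for the T6 controls. Reads in genes were similar, at 20711380 to 22671840 in T0 and 21662777 to 26588314 in T6 libraries, as was the share of reads outside genes, at 15.9 to 17%.

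**Figure D4:**
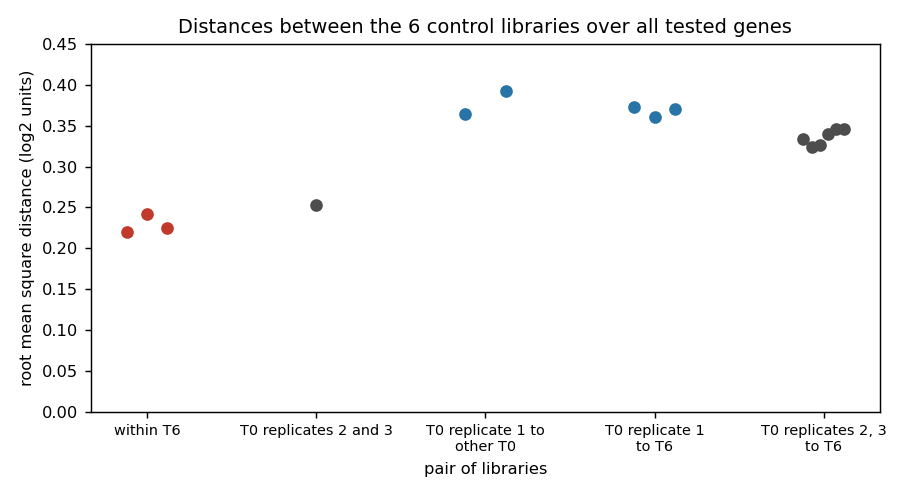
Root mean square distance in log2 units (vertical axis) for each of the 15 pairs among the 6 control libraries, grouped by kind of pair (horizontal axis), over all tested genes. T0 replicate 1 (blue) is as far from the other T0 libraries, at 0.364 and 0.393, as from T6.

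Relative to T6, T0 replicate 1 was often at either extreme of its group. Among the 3035 called genes it was the T0 library nearest to the T6 mean for 1298 and the farthest from it for 1244, whereas these counts were 760 and 800 for T0 replicate 2 and 977 and 991 for T0 replicate 3. Without T0 replicate 1, 3200 genes were called (1700 higher, 1500 lower), 2361 of them shared with the full comparison. All of the 3035 called genes kept their direction, which was likely beforehand because they were called with the remaining libraries included. Of the 2-fold changes, 36 of the 42 rises and 28 of the 32 falls were still called, and the number of called genes changed 2-fold or more was 121 in place of 74. With the 5 remaining control libraries fitted on their own, 4696 genes were called, against 1644 with all 6 on their own. Hmox1 rose 6.57-fold and Egr1 fell 3.33-fold without T0 replicate 1 (edgeR adjusted p 1e-06 and 7.6e-13).

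**Figure D5:**
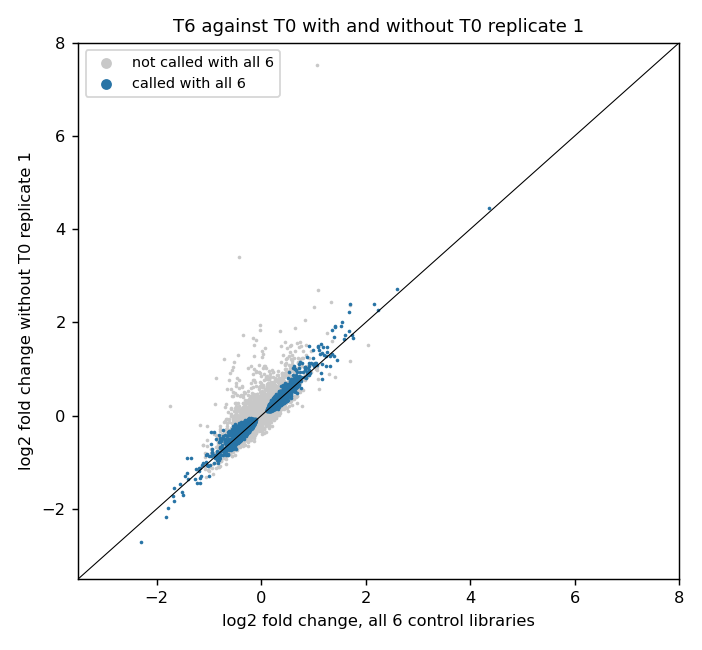
Log2 fold change of T6 over T0 controls without T0 replicate 1 (vertical axis) against that with all 6 control libraries (horizontal axis), 1 point per gene, with genes called in the full comparison in blue and a line of equality. The 3035 called genes, chosen with the same remaining libraries included, keep their sign, and ENSRNOG00000003537 moves from 1.68 to 2.23.

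The numbers of called rises and of called falls changed when a single library was left out, which also leaves its group smaller. How much of the change came from the smaller group was not tested. Without T6 replicate 1, 2 or 3 the called falls numbered 959, 940 and 1053, and the called rises 1116, 1090 and 1098. Without T0 replicate 1, 2 or 3 the called falls numbered 1500, 1201 and 1351, and the called rises 1700, 1149 and 1288. Rises made up 50.5% of edgeR's calls under TMM and 51.3% with relative log expression (RLE) size factors in its place. The DESeq2 test gave 50.9%. The share was 65.9% (2020 rises and 1047 falls) when edgeR scaled libraries by their size alone.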

How the data were processed

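Polyadenylated RNA was sequenced as stranded libraries from 500 ng of total RNA, per the labels' protocols. For each library the authors deposited raw counts of reads in genes, made with cutadapt 1.8, STAR 2.5.2b and HTSeq 0.6.1 on Rnor_6.0, per the submitters' processing notes. How HTSeq used strand, and which annotation, the sources used here do not give, so overlapping, antisense and near-identical genes are uncertain. The 5 summary lines were left out: reads outside genes made up 15.9 to 17% of alignments, reads with several alignments 23.6 to 24.2% and ambiguous reads 0.224 to 0.243%.

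Of 32494 identifiers, 0 matched a symbol in the reference (GRCr8, 47357 genes), so 0 of 44 symbol lists were tested. Members, lists and the 3 named genes were chosen with earlier results of these data known. Beyond these, the 2 largest rises and 2 largest falls were named among called genes whose mean log2 CPM was at least 1 and groups that do not overlap.

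edgeR 4.0.16 (R 4.3.3) fitted 21 libraries in 7 groups together (quasi-likelihood, robust, TMM, filterByExpr with minimum count 10, 14 residual degrees of freedom), two-sided, with Benjamini-Hochberg adjustment over all genes tested. The SE is the log2 fold change over the root of F, and 95% intervals are normal ones from it. A typical 95% interval extends 0.16 on the log2 scale to either side. The script was tested on simulated data. Alternatives used DESeq2 1.42.0, limma 3.58.1, other scalings, filters and sets of libraries.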

Additional observations from a re-analysis of the deposited data

How the results depend on the processing

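The fit shares its spread over groups that differ in it: over genes, the SD had a root mean square of 0.242 log2 units in T0 and of 0.162 in T6 controls. Fitted alone, the 6 libraries gave 1644 called genes (904 higher, 740 lower), 1628 of them among the 3035. Fitted alone and without T0 replicate 1, an alternative added after seeing the data, they gave 4696 (2309 higher, 2387 lower). limma voom with quality weights called 4661 (2242 higher, 2419 lower) and DESeq2 2979. Leaving out single libraries gave 2030 to 3200 called genes, 1090 to 1700 higher and 940 to 1500 lower. The number changed 2-fold or more was 46 with a filter of 1 CPM in 3 libraries, 45 with DESeq2 and 126 with voom. No called gene of the 3035 changed sign in any of the 16 alternatives where it was tested. The alternatives reuse the libraries in which these genes were called, so this is not an independent check. The causes were not tested. No paired analysis was possible because the titles give the T0 and T6 controls no shared replicate numbers. Depth limits the genes with few reads at T0, such as ENSRNOG00000014948.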
